A study of Mus musculus with 2 samples.

Results

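Aim2 and 9 genes of the Ifi200 family (Ifi203, Ifi204, Ifi205, Ifi207, Ifi208, Ifi209, Ifi211, Ifi213 and Mndal) were followed across the cell classes of inflamed mouse pancreas. They were chosen by gene symbol and make up 10 of the 31253 genes in the deposited matrices. The rule uses no measured value, but the set was chosen with earlier results of these data known. The proteins of this family carry a pyrin domain, a HIN domain or both, and HIN domains bind double-stranded DNA. Aim2 senses DNA in the cytosol and assembles an inflammasome through the adaptor Pycard (ASC), which activates caspase-1 and so the release of interleukin 1 beta and interleukin 18. Ifi204 has been described as a DNA sensor that acts upstream of STING, and many genes of the family are induced by interferons in macrophages and lymphocytes.

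The study captured single-cell suspensions of mouse pancreas on the BD Rhapsody system and holds 2 libraries. The library called CP came from Cae-treated mice, and the library called CP+EVs from mice that received Cae together with extracellular vesicles. The labels do not spell out Cae, and they name the condition of both libraries acute pancreatitis, whereas chronic pancreatitis and exercise-induced vesicles stand in the series title. Strain, age and number of mice were not given in the sources used here. UMIs (unique molecular identifiers, each counting 1 captured RNA molecule) numbered 51652425 over 13507 barcodes in CP and 38532775 over 8845 barcodes in CP+EVs, and the median barcode had 1417 and 2884. Each group is a single library, so nothing could be tested against replicate error, and every difference below is one between these 2 libraries. All intervals are 95% intervals and cover counting error only.

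Barcodes were assigned to a class when the UMIs of that class's marker genes exceeded the level expected from both libraries, and a class name below means barcodes gated in that way. In both libraries at least 50 barcodes were found for 10 classes, namely monocytes, macrophages, type 2 dendritic cells (cDC2), B cells, plasma cells, T cells, NK cells, type 2 innate lymphoid cells (ILC2), mesothelial cells and fibroblasts. Neutrophils were almost limited to CP, with 3542 barcodes against 31, and acinar cells to CP+EVs, with 3380 barcodes against 11. Of the NK cell barcodes, 60 of 77 in CP and 83 of 129 in CP+EVs lacked a UMI of the T cell genes Cd3d, Cd3e and Cd3g. RNA of unrelated classes was present at a low level in every class. In B cells, for example, markers of unrelated classes had a median of 13.6% of their library level for CP and 15.9% for CP+EVs, and this value is called the carry-over level below. The matrices shared 118 barcode sequences, of which 1 fell in the same class in both.

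All 10 genes lie in a cluster of 681 kb on chromosome 1 (chr1:173350879-174031810, GRCm38, GENCODE vM21), in which 13 protein-coding genes were annotated. Aim2 occupies one end and is transcribed from the plus strand, as are Ifi208 and Ifi209, whereas the other 7 members are on the minus strand. The annotated Mndal gene (chr1:173849126-173942491) overlaps exons of Ifi203 (chr1:173920407-173942672) on the same strand, so reads in that overlap cannot be told apart between this pair.

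The copies also share sequence, which limits how reads can be divided between them. Aim2 shared none of its 100-base stretches with any other annotated transcript. Of the 100-base stretches of Ifi205, 41.5% also occurred in Ifi211, and over the last 500 bases of the transcripts the share was 57.9%. Of the stretches of Ifi211, 56.9% occurred in another gene. Ifi209 shared 17.9% of its stretches with Ifi214, a neighbour outside the set, and 57.6% over the last 500 bases. The share was 16.8% for Ifi204, 10.2% for Mndal, 8.23% for Ifi208, 4.73% for Ifi213, 3.93% for Ifi203 and 0.79% for Ifi207. Values of Ifi205, Ifi211 and Ifi209 are therefore uncertain to the extent that the authors' counting divided shared reads, and its rule for such reads was not given in the sources used here.

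**Figure D1:**
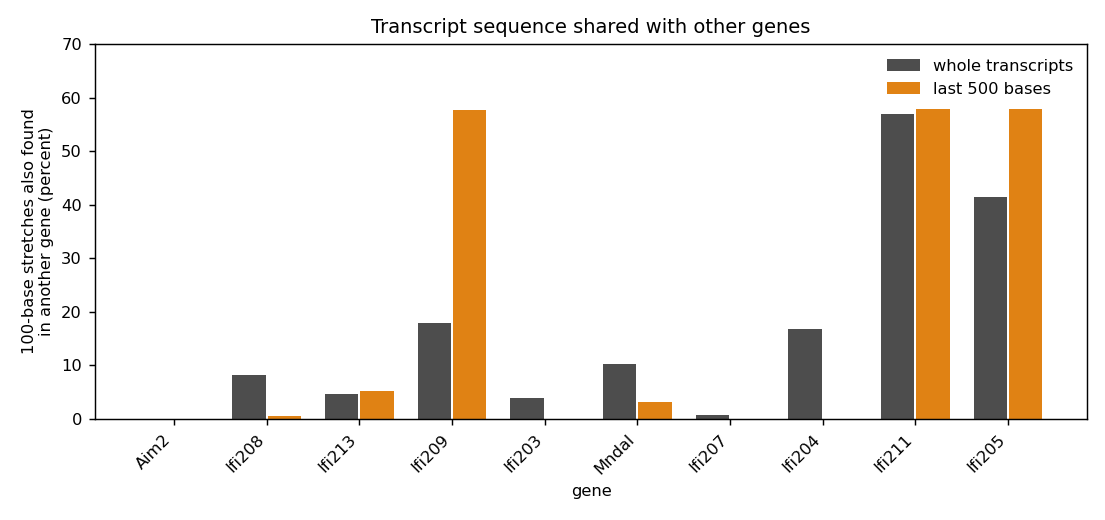
Percent of 100-base stretches of each gene's GENCODE transcripts (vertical axis) that also occur in the transcript of another gene, for whole transcripts (grey) and for the last 500 bases (orange). Ifi205 and Ifi211 reach 57.9% and Ifi209 reaches 57.6% over the last 500 bases, while Aim2 is at 0.

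Promoters were available for 9 of the 10 members in the RefSeq table (build GRCm38.p6, 250 bases before to 50 bases after the start). They were searched on both strands for GAAANNGAAA, the core of the interferon-stimulated response element to which interferon regulatory factors bind. It was found in 7 of the 9, against 3.99% of 27025 genes with a promoter in that table. The version GAAATCGAAA occurred in 16 genes of the table, or 0.0592%, of which 5 are members and 2 are the neighbours Ifi206 and Ifi214. The windows around the match are shown because they fall into sets of near-identical sequence, with the match in capitals, 5′ to 3′ on the strand of the gene (for Ifi203, from one of its promoters in the table).
Ifi203: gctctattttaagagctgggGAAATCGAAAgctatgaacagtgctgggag
Mndal: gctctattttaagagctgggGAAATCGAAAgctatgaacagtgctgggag
Ifi208: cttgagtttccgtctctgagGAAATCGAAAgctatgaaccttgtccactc
Ifi213: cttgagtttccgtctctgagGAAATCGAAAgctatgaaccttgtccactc
Ifi207: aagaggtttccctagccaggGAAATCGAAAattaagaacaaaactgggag
Ifi205: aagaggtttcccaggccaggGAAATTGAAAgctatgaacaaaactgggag
Ifi211: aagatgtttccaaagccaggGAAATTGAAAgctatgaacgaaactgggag

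In order of the lines above, the windows lie at chr1:173942498-173942547 (minus strand), chr1:173880194-173880243 (minus), chr1:173673587-173673636 (plus), chr1:173599316-173599365 (minus), chr1:173741821-173741870 (minus), chr1:174031860-174031909 (minus) and chr1:173913054-173913103 (minus). Those of Ifi203 and Mndal were identical over their 50 bases, and so were those of Ifi208 and Ifi213. The windows of Ifi205, Ifi207 and Ifi211 were 84% to 92% identical to each other and 50% to 52% identical to those of Ifi208 and Ifi213. The RefSeq promoter of Mndal lies inside the GENCODE gene rather than at its 5′ end. The matches printed began between 35 and 134 bases before the start. Ifi205 held a further match on the opposite strand, 23 bases after its start, and a second promoter of Mndal in the table held another on the opposite strand. Neither Aim2 nor Ifi209 held GAAANNGAAA in its promoter window, and no member held TTCNNNGAA, the core of the gamma-activated site, which 8.30% of all promoters held. The promoter of Ifi209 did hold TAAATCGAAA, which differs from GAAATCGAAA in its first base. A match is a description of sequence, and no binding was measured here.

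Over all kept barcodes the set was level between the libraries. The 10 genes summed to 82215 UMIs in CP, or 1598 CPM (counts per 1000000 UMIs of the barcodes in question), and to 63510 UMIs in CP+EVs, or 1650 CPM. At a limit of 1.5-fold, 0 of the 10 genes were higher and 0 lower in CP+EVs, against 9.66% and 22.7% of the 7155 genes above the floor (20 CPM in 1 library and 20 UMIs in all). By gene, Aim2 stood at 31.8 CPM in CP and 27.6 in CP+EVs, and Mndal at 267 and 335. These near-equal totals were sums over classes with different patterns, described next gene by gene.

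Expressed against the level in the whole library, the members fell into 3 patterns. Aim2, Ifi208, Ifi213 and Ifi209 were above it in B, T and NK cells of CP, and at 30.3% of it or less in fibroblasts and mesothelial cells of both libraries. Ifi203 and Mndal were at 78.0% or more in all of the 10 classes compared except plasma cells. Ifi204, Ifi205, Ifi207 and Ifi211 were at 8.71% to 14.2% in B cells, below the carry-over level, and at 137% to 291% in fibroblasts, other than Ifi207 in CP at 75.7%. Ifi204 and Ifi207 were also at 108% to 292% in monocytes and macrophages. Across classes the log2 levels of Ifi203 and Mndal correlated with r = 0.98 in CP (12 classes) and 0.89 in CP+EVs (13 classes), and those of Ifi208 and Ifi213, the other pair with identical promoter windows, with 0.87 and 0.74. Likeness did not follow the windows in every pair. Ifi205 correlated with Ifi207, whose windows were 88% identical, at 0.34 and 0.59. Ifi209, which held TAAATCGAAA rather than GAAANNGAAA and whose window was not compared, correlated with Ifi213 at 0.96 and 0.93. These classes share libraries and carry-over, and the part of the overlap in annotation between Ifi203 and Mndal in their correlation was not tested.

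**Figure D2:**
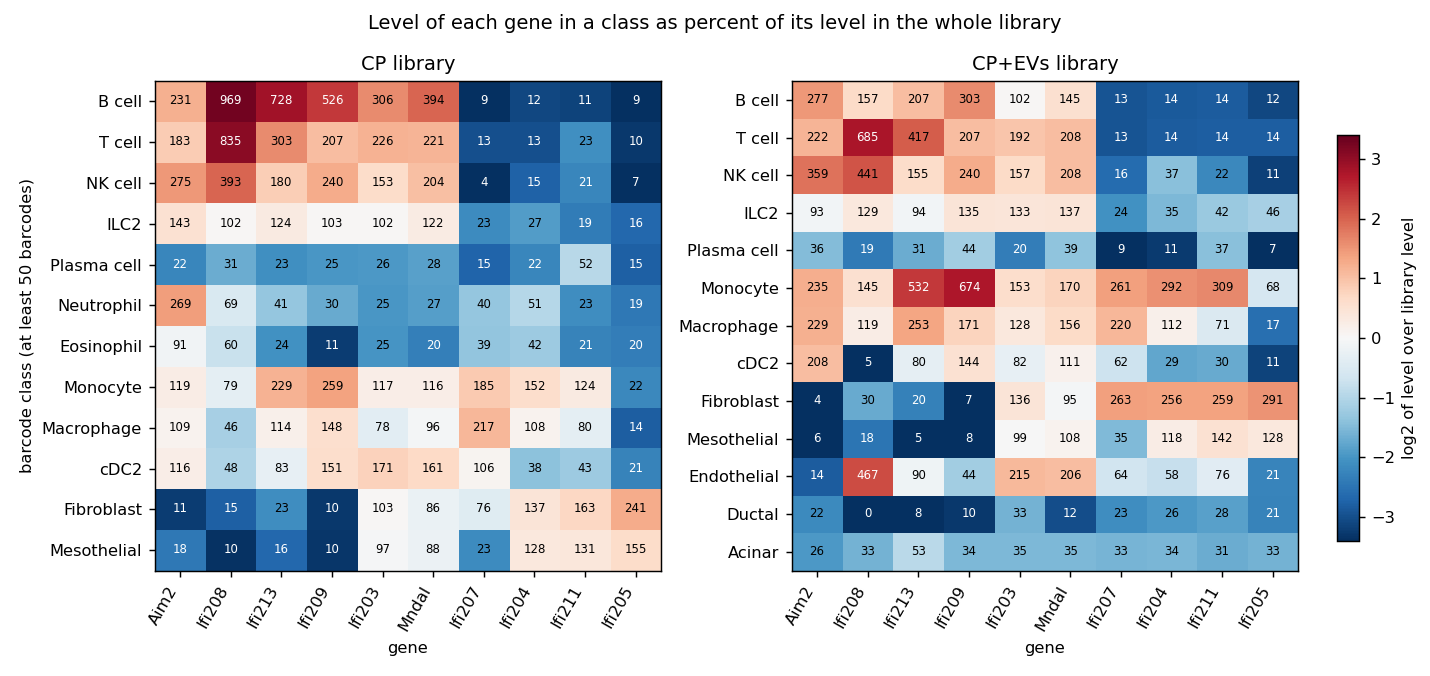
Level of each gene (horizontal axis) in each class (vertical axis) as a percent of its level in the whole library, printed in the cells and coloured on a log2 scale, for CP (left) and CP+EVs (right) and classes of at least 50 barcodes. In CP, Ifi208 stands at 969% of its library level in B cells and at 835% in T cells, and Ifi205 at 241% in fibroblasts.

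Aim2 RNA was found in lymphocytes, neutrophils and other myeloid cells and was near or below the carry-over level in stroma and epithelium. In CP it stood at 87.3 CPM in NK cells (55.9 to 130), 85.2 in neutrophils (78.1 to 92.8, from 531 UMIs), 73.4 in B cells (57.9 to 91.7) and 58.1 in T cells (48.2 to 69.4). It followed with 45.4 in ILC2, 37.7 in monocytes, 36.8 in cDC2, 34.6 in macrophages and 28.9 in eosinophils. Each class overlapped with the next in this order, but neutrophils were clear of T cells, and both were clear of monocytes and macrophages. Plasma cells (6.83), mesothelial cells (5.86) and fibroblasts (3.41) came last.

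In CP+EVs, Aim2 was again highest in NK cells (99.2 CPM, 74.5 to 129) and B cells (76.6, 69.2 to 84.6), and it was at 61.3 in T cells. Macrophages reached 63.4 CPM (48.8 to 80.9), 1.83-fold the CP level (1.37 to 2.41), and cDC2 reached 57.6 (47.8 to 68.9), 1.57-fold (1.15 to 2.15). The intervals of the 2 libraries did not overlap in macrophages or in cDC2, and they did in B, T and NK cells. In fibroblasts only 8 Aim2 UMIs were counted in CP+EVs, which is 1.05 CPM or 3.8% of the library level with a carry-over level of 12.7%. The CP fibroblasts were at 10.7% with a carry-over level of 12.4%.

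At a common depth of 1000 UMIs, 8.40% of 2298 CP neutrophils held an Aim2 UMI (7.30% to 9.61%), close to 8.31% of 337 B cells (5.59% to 11.8%) and against 0.572% of 1398 fibroblasts (0.247% to 1.12%). Before thinning the shares were 11.5% of neutrophils, 14.4% of B cells and 2% of fibroblasts. Shallower barcodes were left out, 1244 of them in neutrophils. B cells of CP+EVs stood at 7.48% of 923 at this depth (5.86% to 9.37%). T cells stood at 6.24% of 545 barcodes in CP and at 5.94% of 488 in CP+EVs. In cDC2 the thinned share was 3.06% in CP and 2.73% in CP+EVs, and the log2 ratio of the thinned level was -0.17, so the higher level of Aim2 in cDC2 was not detectable at this depth. In macrophages it was 2.64% of 1174 in CP (1.8% to 3.73%) and 6.63% of 181 in CP+EVs (3.47% to 11.3%), with overlapping intervals.

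**Figure D3:**
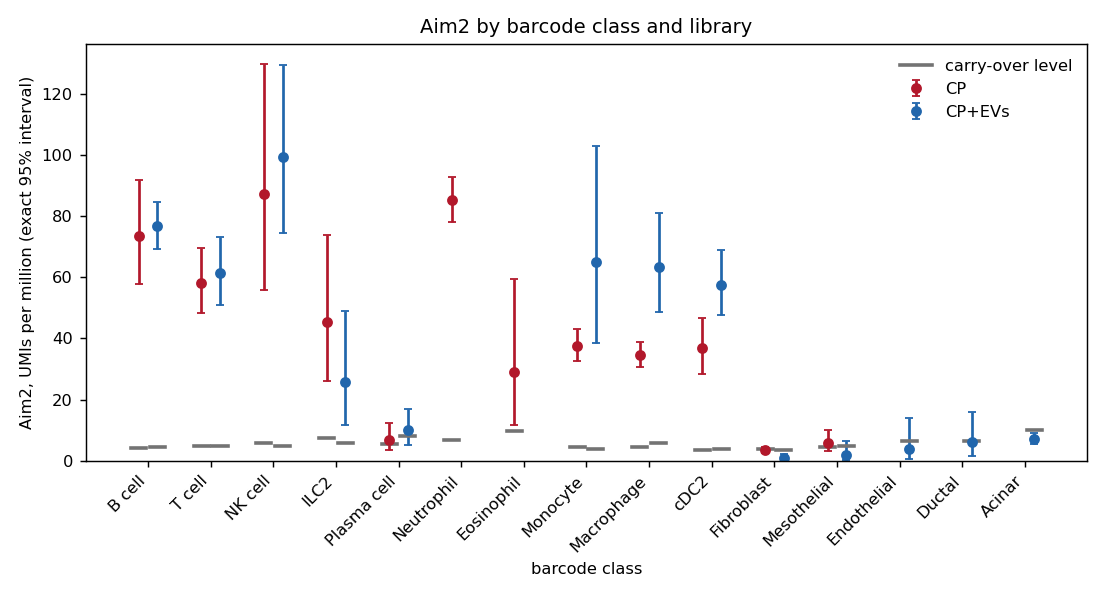
Aim2 in CPM (vertical axis, points with exact 95% intervals) by class (horizontal axis) in CP (red) and CP+EVs (blue), with the level that carry-over alone would give as grey bars. B, T and NK cells of both libraries and neutrophils of CP lie between 58.1 and 99.2 CPM, and fibroblasts are at 3.41 and 1.05.

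The genes through which Aim2 acts did not all share its classes. Pycard was at 79.1 CPM in CP neutrophils and at 219 in CP macrophages, and Casp1 was at 36.3 and 75.8. Il1b, which encodes the cytokine precursor that caspase-1 cleaves, was at 10412 CPM in CP neutrophils. Il1b in B cells was at 313 CPM in CP and 34.6 in CP+EVs, which is 15.2% and 12.6% of the level over all kept barcodes and near the carry-over level of that class. In macrophages Casp1 was higher in CP+EVs together with Aim2, at 145 CPM against 75.8, and Pycard was at 158 against 219. Of 13 genes above the floor in the list of inflammasome partners, 2 were at least 1.5-fold higher and 4 lower in CP+EVs macrophages, shares near those of all genes above the floor in that class (12% higher and 24.7% lower). The 5 genes most like Aim2 across classes, by Pearson correlation of log2 levels over 12 classes in CP and 13 in CP+EVs among 9230 genes, were Ptprc, Rac2, Coro1a, Was and Pik3cd, with r from 0.93 to 0.97.

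Among the 10 classes, B cells had the log2 ratio of the summed level farthest from 0 (-1.05), followed by monocytes (0.85), but it was -0.39 without barcodes of dividing and germinal centre cells, described below. In CP, Ifi203 stood at 660 CPM (612 to 711), Ifi208 at 134 (113 to 158), Ifi209 at 606 (560 to 655), Ifi213 at 251 (221 to 283) and Mndal at 1053 (991 to 1117), over 381 barcodes. In the 1002 B cell barcodes of CP+EVs, Ifi203 stood at 280 CPM (266 to 295), Ifi208 at 31.5 (26.8 to 36.7), Ifi209 at 322 (306 to 337), Ifi213 at 75.8 (68.5 to 83.8) and Mndal at 487 (468 to 507). None of these 5 pairs of intervals overlapped. Ifi208 was 4.27-fold higher in CP (3.38 to 5.38), Ifi213 3.30-fold (2.81 to 3.87), Ifi203 2.36-fold (2.15 to 2.58), Mndal 2.16-fold (2.01 to 2.32) and Ifi209 1.88-fold (1.72 to 2.07). Aim2, at 73.4 and 76.6 CPM, had overlapping intervals.

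Of the 9 members above the floor in B cells, 5 were at least 1.5-fold lower in CP+EVs and 0 were higher, where 14.1% of 6962 genes were lower and 14% higher. The median log2 ratio was -0.91 for these members and -0.03 for all genes above the floor. The other 4 were Aim2 and Ifi204, Ifi205 and Ifi207, and the last 3 were below the carry-over level, as was Ifi211, which was under the floor. The sum of the 10 was 2869 CPM in CP and 1383 in CP+EVs, a log2 ratio of -1.05 (-1.11 to -0.99). The neighbours Ifi206 and Ifi214 were lower too, at 182 against 49.8 CPM and at 103 against 29.7.

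The B cells of the 2 libraries also differed in makeup. A UMI of Mki67 or Top2a, which mark dividing cells, or of Gcsam or Mybl1, which mark germinal centre B cells, was present in 57 of 381 barcodes in CP (15.0%, 11.5% to 18.9%) and in 400 of 1002 in CP+EVs (39.9%, 36.9% to 43.0%). Within CP+EVs, Mndal was at 926 CPM in barcodes without these genes and at 244 in barcodes with them, and Ifi213 was at 167 and 25.2. Aim2 was at 72.4 and 79.0. The barcodes with these genes were deeper, with a median of 5985.5 UMIs against 2593 in CP+EVs, so the split also follows depth.

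Without these barcodes the difference between the libraries was smaller, and the same 5 genes still had ratio intervals below 1 in CP+EVs over CP. The sum stood at 3125 CPM in CP (324 barcodes) and at 2377 in CP+EVs (602 barcodes), a log2 ratio of -0.39. Ifi208 was at 157 against 60.8 CPM, a log2 ratio of -1.37 (1.99-fold to 3.38-fold higher in CP), and Ifi213 was at 280 against 167. Ifi209 was at 685 against 464, Ifi203 at 717 against 536 and Mndal at 1121 against 926, all under 1.5-fold. The count of members at least 1.5-fold lower was then 2, where 11.3% of 6748 genes were lower and 7.78% higher. Of the members below the carry-over level in B cells as a whole, 3 were past 1.5-fold in the other direction. They were Ifi205 at 24.3 against 46.0 CPM, Ifi207 at 21.8 against 36.7, with a ratio interval that included 1, and Ifi211 at 10.2 against 25.8, which passed the floor through CP+EVs alone. In barcodes with these genes the log2 ratio of the sum was -1.36, and Mndal was at 853 against 244.

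Barcodes with a UMI of Ighd, the IgD heavy chain gene of naive B cells, gave 3308 CPM for the sum in CP (307 barcodes) and 1825 in CP+EVs (721 barcodes). Of the Ifi208 UMIs, 140 of 141 in CP and 146 of 161 in CP+EVs were in these barcodes, at 182 and 46.8 CPM, against 3.58 and 7.53 CPM in barcodes without Ighd. Ifi209 in barcodes without Ighd was at 222 CPM in CP and 211 in CP+EVs, with overlapping intervals, whereas Mndal there was at 814 and 179. In barcodes with Ighd the same 5 members as before were at least 1.5-fold lower in CP+EVs, where 12.3% of genes were lower.

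**Figure D4:**
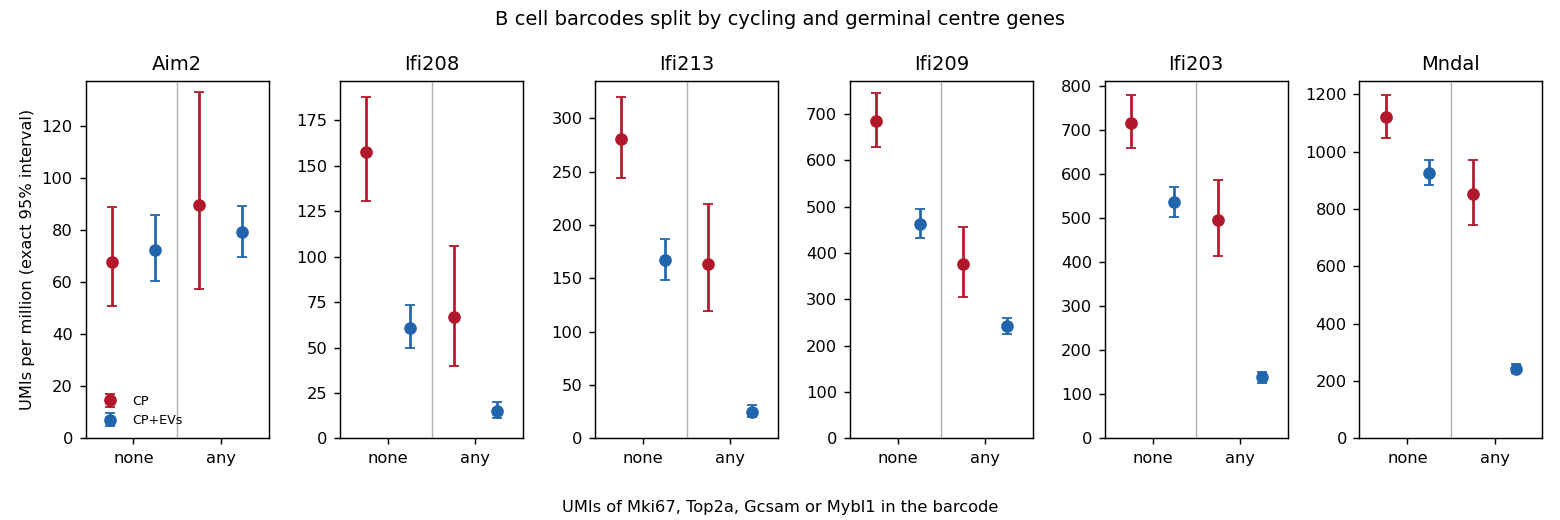
Level of 6 genes in B cell barcodes in CPM (vertical axis, exact 95% intervals, a scale of its own for each gene) without (none) or with (any) a UMI of Mki67, Top2a, Gcsam or Mybl1 (horizontal axis), for CP (red) and CP+EVs (blue). Mndal is at 1121 and 926 CPM without these genes and at 853 and 244 with them, and the intervals of Aim2 overlap throughout.

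Among 31 type I interferon-stimulated genes above the floor in B cells, 29 were at least 1.5-fold lower in CP+EVs, with a median log2 ratio of -1.60. This count covers all B cell barcodes, and the part of their differing makeup in it was not tested. Rsad2 was at 73.4 against 3.52 CPM and Ifit1 at 101 against 5.28. Sting1 was at 72.4 CPM in CP B cells and at 47.1 in CP+EVs, and Cgas at 8.57 and 3.91. Of 8 genes of the list for cGAS and STING above the floor, 4 were lower and 1 was higher.

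T cells showed the same members as B cells at nearly equal levels in both libraries. Ifi203 stood at 488 CPM in CP and 528 in CP+EVs, Mndal at 590 and 698, Ifi209 at 239 and 220, Ifi208 at 116 and 137, and Ifi213 at 104 and 153, over 594 and 522 barcodes. Aim2 was at 58.1 and 61.3. Intervals overlapped for Ifi203, Ifi208, Ifi209 and Aim2, and they did not for Mndal (1.18-fold) and Ifi213 (1.47-fold), which were higher in CP+EVs.

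Of the 10 members, 1 was at least 1.5-fold higher in T cells of CP+EVs (Ifi205) and 1 lower (Ifi211), where 5.67% of 6902 genes were higher and 6.53% lower. Both stood between 10.3% and 23.5% of their library level, with carry-over levels of 15.0% and 17.2%, and Ifi211 passed the floor through CP alone. The sum was 1717 and 1917 CPM. Barcodes with Cd8a or Cd8b1 and no Cd4 gave 1836 and 1863 CPM, and barcodes with Cd4 and none of Cd8a, Cd8b1 and Foxp3 gave 1670 and 2033. In the latter Ifi213 was at 92.6 against 178 CPM, a log2 ratio of 0.94 (1.43-fold to 2.60-fold higher in CP+EVs), and it was at 126 against 141 in the former. Of 27 interferon-stimulated genes above the floor in T cells, 7 were lower in CP+EVs and 0 higher.

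**Figure D5:**
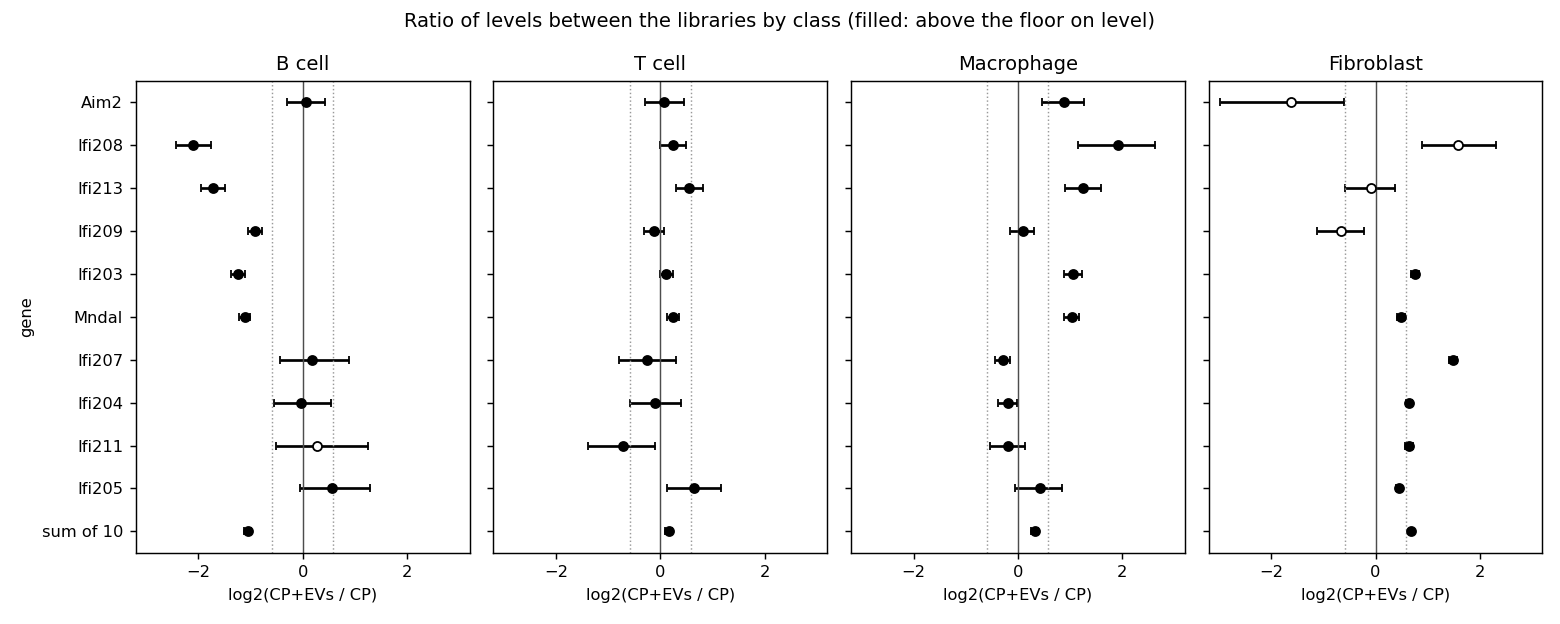
Log2 ratio of CP+EVs over CP (horizontal axis, with exact 95% intervals) for each gene and for the sum of the 10 (vertical axis) in 4 classes, with filled points for genes above the floor and dotted lines at 1.5-fold. In B cells 5 genes lie left of the line, T cells scatter about 0, and in fibroblasts 4 genes with filled points lie right of it. Of the open points in fibroblasts, Ifi208 also lies right of the line, and Aim2 and Ifi209 lie left of the opposite one.

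In NK cells the sum was at 1454 CPM in CP (77 barcodes) and 1812 in CP+EVs (129 barcodes). Of 10 members above the floor, 4 were higher and 0 lower, where 13.1% of genes were higher and 13.9% lower. These 4 were Ifi204, Ifi205, Ifi207 and Ifi208. Their level intervals overlapped between the libraries, although the ratio interval of Ifi204 left out 1. Ifi204 and Ifi208 rested on 12 and 15 UMIs in CP. Ifi205 and Ifi207 passed the floor through CP+EVs alone and rested on 5 and 3 UMIs in CP. Among the 8 members above 20 CPM in both libraries, 2 were higher and 0 lower. Barcodes of this gate without a UMI of Cd3d, Cd3e or Cd3g numbered 60 and 83 and gave 1266 and 1981 CPM. In ILC2, 3 of 9 members (Ifi203, Ifi205 and Ifi211) were higher and 1, Aim2, lower, with 16.5% and 20% of genes. Aim2 rested on 16 UMIs in CP and 9 in CP+EVs, and Ifi211 on 8 and 17, both with overlapping intervals. Ifi205 was at 39.7 against 129 CPM there and Ifi203 at 221 against 367.

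Plasma cells were low in every member, with a sum of 378 CPM in CP and 363 in CP+EVs, and Aim2 at 6.83 and 9.91. Mndal reached 73.9 CPM in CP and 130 in CP+EVs, and no member exceeded 52.3% of its library level. Of 7 members above the floor, 2 were higher and 3 lower, where 5.44% of genes were higher and 31.4% lower. Of the 3, Ifi205 and Ifi207 passed the floor through CP alone, so that 2 were higher and 1 lower among the 5 members above 20 CPM in both.

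In macrophages the members higher in CP+EVs were Aim2, Ifi203, Ifi208, Ifi213 and Mndal. Macrophages of CP (1723 barcodes) held Mndal at 256 CPM (245 to 267), Ifi203 at 168 (160 to 178), Ifi213 at 39.1 (35.0 to 43.6) and Ifi208 at 6.32 (4.72 to 8.28). In CP+EVs (199 barcodes) Mndal stood at 524 CPM (480 to 570), Ifi203 at 351 (316 to 390), Ifi213 at 93.0 (75.2 to 114) and Ifi208 at 23.8 (15.2 to 35.3). These intervals did not overlap. Ifi207 was slightly lower in CP+EVs, at 545 against 446 CPM, with intervals apart. Ifi204, the proposed STING-linked sensor, was at 318 against 277 and Ifi209 at 171 and 181, both with overlapping intervals. Ifi205 stood at 14.2% and 16.8% of its library level, within the carry-over levels of 14.5% and 20.6%.

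B cell RNA was also higher in CP+EVs macrophages. The 12 B cell markers summed to 97.2 CPM in CP (90.5 to 104) and to 301 in CP+EVs (268 to 337), with all 12 present in both, and Ighd was at 10.3 and 32.7 CPM. Relative to the library, in which B cells were more numerous in CP+EVs, the B cell markers stood at 24.6% and 17.2%. The 14 T cell markers summed to 71.4 and 92.1 CPM, with 13 present in each. The part of this RNA in the higher level of the members was not tested.

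Of the 10 members, 5 were at least 1.5-fold higher in CP+EVs macrophages and 0 lower, where 12% of 6507 genes were higher and 24.7% lower. The count includes Ifi208, which passed the floor through CP+EVs alone, so that 4 of 9 were higher among the members above 20 CPM in both. The median gene of the class was at -0.23 on the log2 scale. The ratios of the 5 genes, from 0.88 to 1.93, are to be read against it, and so are the lower levels of Ifi204 and Ifi207. Among barcodes with C1qa, C1qb or C1qc the sum was 1674 CPM in CP and 2115 in CP+EVs. Of 30 interferon-stimulated genes above the floor in macrophages as a whole, 10 were higher and 2 lower.

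Monocytes of CP+EVs numbered 55, of which 14 lay near the limit of the gate, and their values are correspondingly coarse. Ifi209 was at 299 CPM in CP and 716 in CP+EVs (620 to 823), Ifi204 at 449 and 719, Ifi211 at 147 and 362, Ifi213 at 78.7 and 195, and Ifi205 at 55.4 and 192 (144 to 251). Ifi207 was at 465 and 528 and Aim2 at 37.7 and 65.1, the latter from 18 UMIs in CP+EVs, both with overlapping intervals. Of the 10 members, 9 were at least 1.5-fold higher and 0 lower, where 16.9% of 6542 genes were higher and 22.2% lower. Ifi208, at 11 against 28.9 CPM with overlapping intervals, passed the floor through CP+EVs alone. Among the members above 20 CPM in both, 8 of 9 were higher. The count ranged from 6, with mixed barcodes kept, to 10, at a marker excess of 2.5-fold. At 1000 UMIs the log2 ratio of Ifi203 turned from 0.74 to -0.16, and the gene was present in 19.8% of CP and 17.6% of CP+EVs monocytes. The 12 B cell markers summed to 102 CPM in CP monocytes and 195 in those of CP+EVs, whose part in the result was not tested. Of 32 interferon-stimulated genes, 19 were higher and 1 lower.

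Dendritic cells went the other way for some members. In cDC2, Ifi207 was at 268 CPM in CP (244 to 293) and 125 in CP+EVs (110 to 141), and Ifi203 at 368 (341 to 398) and 225 (205 to 247). Of 9 members above the floor, 4 were lower and 1, Aim2, was higher, where 22.7% of 6400 genes were lower and 10.1% higher. The 4 included Ifi204 and Ifi205, which stood at 11.3% to 38.2% of their library level. With median-of-ratios scaling, which centres the class on its median gene (-0.23 on the log2 scale), 1 was lower and 1 higher. The 39 type 1 dendritic cells (cDC1) of CP held 430 UMIs of Ifi205, or 950 CPM (862 to 1044), which is 378% of the library level with a carry-over level of 14.2%. The 24 cDC1 of CP+EVs held 69 UMIs, or 318 CPM (248 to 403). At a depth of 1000 UMIs, Ifi205 was present in 69.4% of 36 cDC1 of CP and in 4.08% of 196 cDC2. Ifi211, with which Ifi205 shares sequence, was at 258 CPM in the same cDC1 and at 189 in those of CP+EVs.

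Fibroblasts held the highest levels of Ifi205 among the 10 classes compared, and 4 members were higher in them in CP+EVs. Ifi205, a family member reported to regulate Pycard in macrophages, stood at 605 CPM in CP (593 to 618) and 823 in CP+EVs (803 to 844). Ifi207 stood at 190 CPM (183 to 198) and 533 (517 to 550), the largest ratio in this class at 2.80-fold (2.67 to 2.94). Ifi204 stood at 403 and 631 CPM, Ifi203 at 222 and 374, Ifi211 at 194 and 303, and Mndal at 228 and 319. The intervals of all 6 were apart between the libraries.

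Of these 6 members, the ones above the floor, 4 were at least 1.5-fold higher in CP+EVs and 0 lower, where 12.6% of 6702 genes were higher and 13.5% lower. The sum was at 1868 CPM in CP and 3006 in CP+EVs, a log2 ratio of 0.69 (0.66 to 0.71). Aim2, Ifi208, Ifi209 and Ifi213 were under the floor, at 3.8% to 30.3% of their library level. At a depth of 1000 UMIs, Ifi205 was present in 39.1% of 1398 fibroblasts in CP and in 51.6% of 1033 in CP+EVs, against 2.67% of 337 and 2.60% of 923 B cells. The median depth of fibroblasts was 1735 UMIs in CP and 5982 in CP+EVs.

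Fibroblast subsets differed in share between the libraries as well. Barcodes with Pi16 or Dpp4, genes of adventitial fibroblasts, made up 45.8% of fibroblasts in CP and 73.1% in CP+EVs. Among them Ifi207 was at 189 CPM in CP and 488 in CP+EVs, and the sum at 1898 and 2859. Among the barcodes without Pi16 and Dpp4, Ifi207 was at 195 and 771 CPM, Ifi203 at 222 and 608, and the sum at 1737 and 3791, with median depths of 929.5 and 3325 UMIs. Barcodes without Tnc, Cthrc1, Postn and Acta2, which mark matrix-remodelling and contractile fibroblasts, gave 1969 and 3288 CPM. The higher level in CP+EVs was thus present on both sides of each split. Of the fibroblasts of CP+EVs, 538 of 1119 lay near the limit of the gate, and barcodes that passed no gate in CP+EVs (890) were alike in level, with Ifi205 at 722 CPM and the sum at 3004.

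The list of interferon-stimulated genes did not move with the members in fibroblasts, since 2 of 27 were higher and 3 lower, with a median log2 ratio of 0.11. In the list of interferon receptors and their signalling genes, 2 of 11 above the floor were higher and 2 lower. Of all genes above the floor in fibroblasts, 12.6% were higher and 13.5% lower. The median log2 ratio of the list of receptors and signalling genes was -0.06. The 2 higher genes were Irf1 and Ifngr1, and with 2 others lower they give that list no direction. Irf1, a transcription factor induced by interferon gamma, was at 96.3 CPM in CP and 235 in CP+EVs. Ifngr1, a chain of the interferon gamma receptor, was at 110 and 325. Sting1 was at 45.5 and 20.2 CPM. The neighbours of the cluster Ackr1 and Cadm3 were higher too, at 45 against 103 CPM and at 106 against 200.

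Mesothelial cells held the fibroblast members with little difference. Ifi205 was at 389 CPM in CP and 363 in CP+EVs, Ifi204 at 376 and 291, Ifi203 at 210 and 272, Ifi211 at 156 and 167, and Mndal at 234 and 362. Of 6 members above the floor, 1 was higher, namely Mndal, and 0 lower, where 16.8% of genes were higher and 18.4% lower. Ifi207 was at 57.3 and 71.3 CPM, or 22.8% and 35.2% of its library level. Of 31 interferon-stimulated genes, 15 were higher and 1 lower in this class.

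Endothelial and epithelial cells could be described in CP+EVs alone. The 106 endothelial barcodes held Ifi203 at 590.5 CPM (526 to 661), Mndal at 691 (621 to 767) and Ifi208 at 93.2 (68.7 to 124), which is 467% of the library level of Ifi208 with a carry-over level of 23.5%. Aim2 was represented there by 2 UMIs. In the 3380 acinar barcodes all 10 members lay between 25.9% and 52.8% of their library level. Their median was 33.7%, near the carry-over level of 36.2%. Ifi213 was the highest at 52.8%, where the upper quartile of the markers behind the carry-over level was 46.0%. The 115 ductal barcodes held no UMI of Ifi208 (0 to 5.71 CPM), and every member was at 32.7% of its library level or less. Whether carry-over gave the values in these epithelial barcodes was not tested.

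Neutrophils of CP held Aim2 at 269% of its library level, while the other members were between 18.7% and 69.5% with a carry-over level of 21.2%. Ifi204 was at 151 CPM and Ifi207 at 100.5, which is 51.3% and 40.0%. The 31 neutrophils of CP+EVs held 2 Aim2 UMIs and gave no usable comparison. By the summed level of the set, the 5 genes most alike across classes were Pign, Lats2, Aida, Rnf213 and Tor3a, with r from 0.78 to 0.86 over the same classes.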

How the data were processed

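Values deposited by the authors are UMI counts, whole numbers without normalization, for 31253 genes in every barcode. The submitters' processing notes name CASAVA 1.8, UMI-tools, Seurat and mm10. Aligner, annotation and cell-calling rule were not given in the sources used here. All barcodes held at least 501 UMIs. Barcodes under 200 genes or over 25% mitochondrial UMIs were removed, which left 13409 in CP and 8799 in CP+EVs. A barcode joined the class with the largest excess of marker UMIs, (observed + 1)/(expected + 1), if at least 3 distinct markers were present and the excess reached 1.5-fold. A barcode that also passed an unrelated class at 0.5 of that excess was set aside as mixed (1127 and 633), and 1287 and 890 passed no gate. Thresholds, and 5 markers left out, were set after seeing the data. No doublet caller was run. UMIs were summed per library and class. Intervals are exact Poisson (levels), conditional (ratios) and Clopper-Pearson (shares). Log2 ratios have 0.5 counts added; shares used barcodes thinned to 1000 UMIs. Carry-over is the median level, against the library, of unrelated markers of at least 200 CPM. No test was made. Log2 ratios and their intervals were checked on Poisson counts simulated at the B cell sums, without variation between cells or libraries. Gating, carry-over and thinning were not simulated. The members and gene lists were chosen with earlier results of these data known. Named genes are the 10 members, the listed partners, up to 4 genes per list with the largest ratios, class and subset markers, and the 5 most correlated genes. Python 3.11.15, numpy 2.4.6, scipy 1.17.1 and pandas 2.3.3 were used. The filters, gate, scaling, averaging, thinning and floor were varied.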

Additional observations from a re-analysis of the deposited data

Results flagged for a closer look

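For 9 members the difference between the libraries had opposite directions in 2 classes, each at least 1.5-fold with an interval that left out a ratio of 1. The difference between the classes was not tested, since each group is 1 library. The gap between the classes' log2 ratios was 4.02 for Ifi208, which was higher in CP+EVs macrophages (1.93) and lower in CP+EVs B cells (-2.09). It was 3.05 for Ifi213 (monocytes 1.32, B cells -1.72), 2.30 for Ifi203 (macrophages 1.06, B cells -1.24), 2.15 for Mndal (macrophages 1.03, B cells -1.11) and 2.18 for Ifi209 (monocytes 1.26, B cells -0.91). Without barcodes of dividing and germinal centre cells the B cell values were -0.42 for Ifi203, -0.28 for Mndal and -0.56 for Ifi209, all under 1.5-fold, so that these 3 pairs with B cells no longer met the limit. It was 2.58 for Ifi207 (fibroblasts 1.49, cDC2 -1.10). For Ifi205 it was 2.67 (monocytes 1.8, plasma cells -0.87), for Ifi204 2.30 (NK cells 1.03, plasma cells -1.28) and for Ifi211 2.03 (monocytes 1.31, T cells -0.72). In these 3 the lower class stood at 7% to 23.5% of the library level of the gene. For Ifi204 the higher class was low in CP as well. NK cells held 12 UMIs of it there (43.6 CPM, rank 10 of 12 classes) and 50 in CP+EVs (91.9 CPM). Ifi208 in macrophages passed the floor through CP+EVs alone, and Ifi205 in plasma cells and Ifi211 in T cells passed it through CP alone, each the library where the gene was higher. Aim2 had no such pair among the classes where it was above the floor.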

How the results depend on the processing

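No paired analysis was possible because each group is 1 library, and no replicate could be left out. Over 7 classes, 50 of 74 alternative values of the summed log2 ratio lay within the counting interval of the reported value, and 24 did not, whose causes were not tested. In B cells (-1.05) the sum moved to -0.70 as the mean of per-barcode CPM, to -0.75 at 1000 UMIs, to -0.86 in barcodes with Ighd and to -0.39 without cycling and germinal centre genes. In fibroblasts (0.69) it moved to 0.66 with median-of-ratios scaling, 0.71 without acinar, Reg, mitochondrial, haemoglobin and immunoglobulin genes, 0.74 per barcode, 0.62 at a marker excess of 2.5-fold, 0.59 with Pi16 or Dpp4 and 0.74 without Tnc, Cthrc1, Postn and Acta2. In macrophages (0.33) it moved to 0.16 with at least 5 distinct markers, 0.55 with median-of-ratios scaling, 0.42 per barcode and 0.42 thinned. In monocytes (0.85) it moved to 0.96 with 5 markers, 0.50 with mixed barcodes kept, 0.95 per barcode and 1.11 at 2.5-fold. In cDC2 (-0.47) it moved to -0.68 with 5 markers, -0.24 with median-of-ratios scaling, -0.37 per barcode and -0.58 thinned. In mesothelial cells (0.09) it moved to -0.054 per barcode and -0.034 thinned. For single members 543 of 630 values stayed within the interval. Changes of sign were counted only where the reported ratio was at least 1.5-fold. There were 2 of these, both at 1000 UMIs: Ifi203 in monocytes (0.74 to -0.16) and Aim2 in cDC2 (0.64 to -0.17). The number of members lower in B cells (5) was 2 without cycling and germinal centre genes, and the number lower in cDC2 (4) was 1 with median-of-ratios scaling. Members higher in CP+EVs ranged from 3 to 5 in fibroblasts, 4 to 6 in macrophages, 6 to 10 in monocytes, 0 to 3 in B cells and 0 to 2 in mesothelial cells. Median-of-ratios scaling shifted macrophages and cDC2 by 0.23. Depth limits members that few barcodes held at 1000 UMIs, such as Ifi211 in CP B cells (1.48%). Settings by marker excess, subset and shared barcodes were chosen after seeing the data.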
